A study of Mus musculus with 12 samples.

Results

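The TGFβ pathway was followed here through 10 of the 32544 genes in the deposited table, chosen by their symbols. They are the 3 ligands Tgfb1, Tgfb2 and Tgfb3, the receptors Tgfbr1, Tgfbr2 and Tgfbr3, the latency protein Ltbp1, the signal transducer Smad3 and the inhibitors Smad7 and Skil. Each of the 10 symbols matched 1 row, and all 10 were among the 14285 genes that passed the filter on low counts, although Tgfb2 and Tgfb3 passed it only through the fibroblast libraries. RNA from 4 groups of 3 libraries had been sequenced. Bone marrow-derived macrophages (BMDMs) came from LysMCre mice, called WT, or from PHD2cko mice, in which LysMCre deletes the oxygen sensor PHD2, and their RNA was taken 24 h after seeding. 3T3 fibroblasts, an established mouse line, were starved of serum and then given, for 72 h, medium that BMDMs of either label had conditioned. Controls therefore carry Cre as well, and the LysM promoter is active in neutrophils as well as macrophages. The sources name both normal oxygen and hypoxia for conditioning the medium without saying which one was sequenced, and do not tie the libraries to separate animals or cultures, so that p-values measure only the spread between these libraries. The age of the animals that gave the marrow was not tied to these libraries.

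TGFβ ligands are secreted as latent precursors that stay bound to their own propeptide and, through it, to latent TGFβ binding proteins in the matrix. Once freed by integrins, proteases or thrombospondin, the ligand binds the type II receptor TGFBR2, which phosphorylates the type I receptor TGFBR1, and TGFBR1 in turn phosphorylates SMAD2 and SMAD3. Betaglycan, the product of Tgfbr3, presents ligand to these receptors and matters most for TGFβ2. In fibroblasts the pathway is known for contractile and matrix genes, and macrophages are a known source of TGFβ1. The libraries measured mRNA, not secreted, latent or active ligand.

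The promoters of 5 members are shown because these genes either rose or fell in fibroblasts or, for Tgfb2, were almost absent from one cell type. With Smad7 left out of the search, the RefSeq table for GRCm38.p6 matched 6 of the 10 members. Each window is the 250 bases before the first annotated start, with capitals marking motifs on either strand: GGGCGG as the core of the GC box, TATAAA as the TATA box, TGACG as the short form and TGACGTCA as the full form of the cAMP response element, and ACGTG as the core of hypoxia response elements. The full form contains the short one on both strands, so those hits overlap. For Tgfb1 the window is chr7:25686752-25687001 (plus strand), for Tgfb2 chr1:186705990-186706239 (minus strand), for Tgfbr1 chr4:47352972-47353221 (plus strand), for Tgfbr2 chr9:116175364-116175613 (minus strand) and for Ltbp1 chr17:75005279-75005528 (plus strand).
Tgfb1: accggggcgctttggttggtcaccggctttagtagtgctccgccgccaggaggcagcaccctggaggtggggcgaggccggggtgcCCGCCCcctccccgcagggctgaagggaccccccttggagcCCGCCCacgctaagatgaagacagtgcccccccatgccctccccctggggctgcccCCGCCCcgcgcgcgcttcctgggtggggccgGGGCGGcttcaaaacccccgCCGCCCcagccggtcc
Tgfb2: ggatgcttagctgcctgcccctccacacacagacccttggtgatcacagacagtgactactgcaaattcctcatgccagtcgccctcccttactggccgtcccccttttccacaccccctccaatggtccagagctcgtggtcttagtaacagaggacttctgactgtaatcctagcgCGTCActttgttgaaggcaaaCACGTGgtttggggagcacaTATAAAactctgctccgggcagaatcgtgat
Tgfbr1: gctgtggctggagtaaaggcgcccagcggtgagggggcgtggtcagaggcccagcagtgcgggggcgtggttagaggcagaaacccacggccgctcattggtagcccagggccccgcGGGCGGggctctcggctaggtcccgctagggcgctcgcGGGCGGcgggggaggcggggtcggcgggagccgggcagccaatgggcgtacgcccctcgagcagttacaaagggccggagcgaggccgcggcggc
Tgfbr2: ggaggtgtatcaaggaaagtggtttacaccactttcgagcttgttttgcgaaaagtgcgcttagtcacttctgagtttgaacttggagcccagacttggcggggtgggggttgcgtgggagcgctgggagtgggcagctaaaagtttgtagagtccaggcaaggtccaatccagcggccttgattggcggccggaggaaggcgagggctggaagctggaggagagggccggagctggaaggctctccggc
Ltbp1: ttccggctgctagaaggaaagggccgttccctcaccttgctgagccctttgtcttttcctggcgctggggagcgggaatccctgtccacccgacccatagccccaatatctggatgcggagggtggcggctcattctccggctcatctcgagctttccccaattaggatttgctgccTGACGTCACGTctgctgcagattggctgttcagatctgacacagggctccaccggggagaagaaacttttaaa
The ligand promoters differ in these letters. Tgfb1, at a GC content of 75.2%, holds 5 GGGCGG and no TATAAA, whereas Tgfb2, at 53.6%, holds TATAAA from base -31, counted back from the start, and no GGGCGG. The GC box core occurs in 32.7% of the 32851 RefSeq promoter windows of this length, and TATAAA in 12.4%. Tgfbr1 (74.8% GC) holds 2 GGGCGG and Tgfbr2 (58.4% GC) none of the motifs searched. Ltbp1 (56.8% GC) holds TGACGTCA from base -73, with ACGTG overlapping it on the other strand. TGACGTCA stands in 1.55% of the windows, TGACG in 17.8% and ACGTG in 16.6%, and Tgfb2 has TGACG and ACGTG as well. Tgfbr1 and Ltbp1 each have a further annotated start, which gene counts do not separate.

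Library totals ran from 15516465 to 25199770 counts. Egln1, which encodes PHD2 (ENSMUSG00000031987.6, chromosome 8, 124908587 to 124949324), stood at 55.8, 54.7 and 55.5 counts per 1e6 (CPM) in BMDM WT and at 68.8, 68.3 and 71.6 CPM in the libraries labelled PHD2cko. It was thus higher, not lower, in the latter (log2 fold change 0.33 with a standard error of 0.0527, adjusted p = 0.00203, edgeR). The table has no values per exon, so a gene count that takes in exons outside the deleted part does not check the deletion. Bnip3, a gene that hypoxia-inducible factors are known to induce and that was picked with its values in view, was at 34.5, 33.8 and 36.6 CPM in BMDM WT and at 66.2, 62.6 and 60.0 CPM in BMDMs labelled PHD2cko (log2 fold change 0.85, adjusted p = 1.5e-05, edgeR), so the groups did not overlap. Each direction below is that of the label. The 24 macrophage markers chosen for this work summed to 42709 to 48900 CPM in BMDMs, 28.8 to 31.5 CPM in 3T3 cells in WT medium and 235 to 1034 CPM in 3T3 cells in PHD2cko medium. Relative to BMDMs, that is a macrophage RNA share of 0.0598 to 0.0652% in WT medium, against 2.39, 0.542 and 2.14% in replicates 1, 2 and 3 of PHD2cko medium. Lyz2, the most abundant marker, averaged 3.30 CPM in WT medium and 146 CPM in PHD2cko medium, and Adgre1, which encodes F4/80, 0.181 and 19.8 CPM. None of the markers was at 0 in every library of either group, and 3 had at most 3 counts in every WT medium library. Single macrophage markers did not all give the same share. Adgre1, Ctss, C1qa and Cd14 stood at 2106, 5952, 296 and 276 CPM in BMDMs labelled PHD2cko and at 19.8, 47.2, 12.6 and 30.0 CPM in PHD2cko medium. In WT medium C1qa was at 0.0498 and Cd14 at 4.51 CPM. Values given below with the share subtracted rest on the marker sum. How far they depend on the choice of markers was not tested. The 12 fibroblast markers summed to 21754 to 29460 CPM in 3T3 libraries and to 17.4 to 24.6 CPM in BMDMs, where Twist1 had no count. Within the 3T3 libraries that sum moved with the medium as well, from 21754 to 23924 CPM in WT medium to 28477 to 29460 CPM in PHD2cko medium, and its part in the results was not tested. In these bulk libraries, more cells of a type and more RNA per cell cannot be told apart. Neutrophil markers stayed at 0.0548 to 0.778 CPM summed over 7 genes in all libraries, B cell markers at 0.658 to 4.28 over 5, T cell markers at 0.233 to 1.90 over 4 and endothelial markers at 29.8 to 55.9 over 3. Replicate 1 in WT medium stood apart from the other two: its counts gave a chi-square, divided by the degrees of freedom, of 25.1 and 27.01 with them, where theirs with each other was 2.35.

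Macrophages and fibroblasts expressed different ligands. Tgfb1 (ENSMUSG00000002603.15, chromosome 7, 25687002 to 25705077 on GRCm38) was at 350.3, 341 and 356 CPM in BMDM WT and at 23.9, 21.001 and 21.9 CPM in 3T3 cells in WT medium. Every BMDM library lay far above every fibroblast library, a 15.7-fold difference (log2 fold change 3.97 with a standard error of 0.0674, adjusted p = 1.0e-14, edgeR). The other ligands went the opposite way. Tgfb2 (ENSMUSG00000039239.14, chromosome 1, 186622792 to 186705989) had 1, 1 and 0 counts in BMDM WT and 633, 800 and 596 counts in 3T3 cells in WT medium. Tgfb3 (ENSMUSG00000021253.7, chromosome 12, 86056745 to 86079041) had 2, 2 and 1 counts in BMDM WT against 1540, 2187 and 1543. With so few macrophage counts the size of the gap is loosely bounded, at a ratio of depth-scaled counts of 742 for Tgfb2 (95% exact counting interval 205 to 6129) and 771 for Tgfb3 (330 to 2374), and these intervals cover counting error only. Tgfb2 and Tgfb3 entered the fit only through the fibroblast libraries in which they are high, so that their difference between cell types was fixed by the filter and is given as a description. Of the other 8 members, Tgfb1, Tgfbr1, Tgfbr2 and Skil were higher and Tgfbr3, Ltbp1, Smad3 and Smad7 lower in BMDMs, each past the threshold of 0.05 on the adjusted p of edgeR. In that comparison 85.3% of all genes passed, so the count of members alone says little.

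Per kilobase of annotated exon, Tgfb1 made up 99.9% of the summed level of the 3 ligands in BMDM WT (SD 0.0257 percentage points, n = 3) and 99.9% in BMDMs labelled PHD2cko (SD 0.0366). In 3T3 cells in WT medium Tgfb3 held the largest share, at 70.7 ± 1.36%, followed by Tgfb2 at 16.01 ± 0.633% and Tgfb1 at 13.2 ± 0.785% (SD, n = 3). In PHD2cko medium Tgfb1 held 20.2, 16.6 and 18.5% in replicates 1, 2 and 3, above the 14.1, 12.8 and 12.8% in WT medium. The means were 18.4 ± 1.81% for Tgfb1, 16.4 ± 1.01% for Tgfb2 and 65.2 ± 1.75% for Tgfb3. An exact two-sided permutation test gave p = 0.1 for Tgfb1 and for Tgfb3, the smallest that 3 libraries against 3 allow, and p = 0.8 for Tgfb2. With the macrophage share subtracted, Tgfb1 held 13.1 ± 0.799% in WT medium and 15.9 ± 0.608% in PHD2cko medium.

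**Figure D1:**
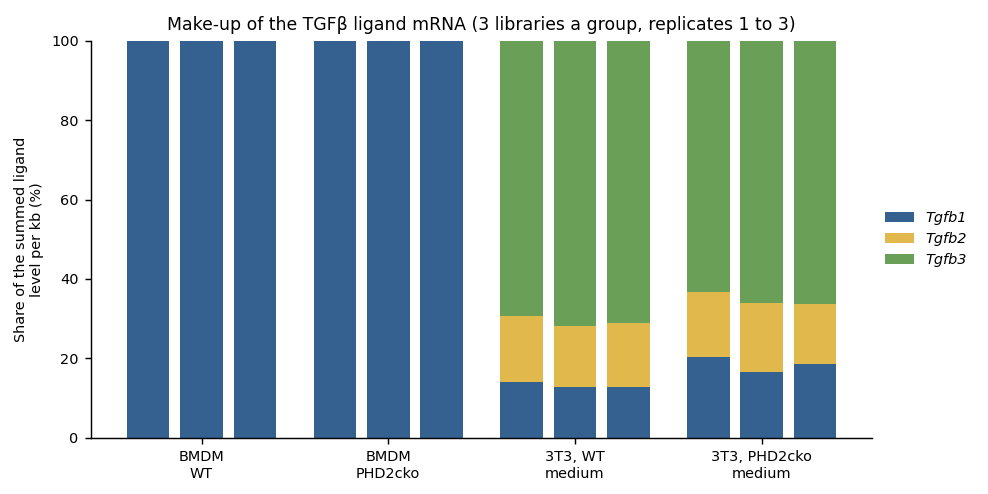
Share of each ligand, in percent of the summed level per kilobase of Tgfb1, Tgfb2 and Tgfb3, in each of the 12 libraries (1 bar each, replicates 1 to 3 from left to right). Tgfb1 fills the BMDM bars at 99.8 to 99.97%, and Tgfb3 holds 63.2 to 71.9% of the fibroblast bars.

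Within macrophages, none of the 10 members passed that threshold between the labels, where 6.73% of all genes did. At an unadjusted p under 0.05 there were 2, Tgfbr1 and Ltbp1, near the 19.0% of all genes that reached it. DESeq2 put 2 past the adjusted threshold, beside 7.83% of all genes, and limma-voom 0, beside 7.46%. Tgfb1 was at 360.4, 359 and 373 CPM in BMDMs labelled PHD2cko, a little above the 3 WT libraries without overlap (log2 fold change 0.06, adjusted p = 0.659, edgeR). Its 95% interval, from the standard error and 8 residual degrees of freedom, ran from -0.07 to 0.19 on the log2 scale. Tgfb2 had 1, 2 and 2 counts in BMDMs labelled PHD2cko, under the floor of 3 counts a library like WT, so no fold is given. Tgfb3 had 4, 5 and 4 counts, or 13 against 5 in all, a ratio of 2.51 with a counting interval of 0.839 to 8.98.

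Tgfb1 rose in fibroblasts in PHD2cko medium. It reached 32.1, 27.5 and 31.2 CPM there, above each of the 3 values in WT medium, a 1.37-fold difference (log2 fold change 0.45 with a standard error of 0.0673, adjusted p = 7.9e-04, edgeR). Replicate 2, with the lowest macrophage share, also had the lowest of these levels. The share of each library times the BMDM level of Tgfb1 came to 7.91, 1.79 and 7.09 CPM in replicates 1, 2 and 3 of PHD2cko medium and to at most 0.205 CPM in WT medium, taken over the total count. What was left was 28.2, 28.8 and 27.8 CPM against 25.5, 22.8 and 23.7 CPM, still without overlap. These values rest on the share from the marker sum, which single markers did not all match. Fitted on counts with that share subtracted, the log2 fold change of Tgfb1 was 0.23 (adjusted p = 0.0152, edgeR). With replicate 2 as the single library of PHD2cko medium, a fit chosen after seeing the data in which that library is assumed to vary like the other groups, it was 0.31 and missed the threshold (adjusted p = 0.0834, edgeR).
Tgfb2 stood at 32.2, 29.0 and 31.5 CPM in WT medium and at 30.3, 32.8 and 29.6 CPM in PHD2cko medium, overlapping throughout (log2 fold change 0.00, 95% interval -0.16 to 0.16). Tgfb3, the ligand with the highest fibroblast level per kilobase, was at 78.3, 79.3 and 81.6 CPM in WT medium and at 67.4, 73.6 and 75.2 CPM in PHD2cko medium. These groups did not overlap, but the difference missed the threshold (log2 fold change -0.15, adjusted p = 0.0708, edgeR), which it passed with limma-voom (adjusted p = 0.0478).

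**Figure D2:**
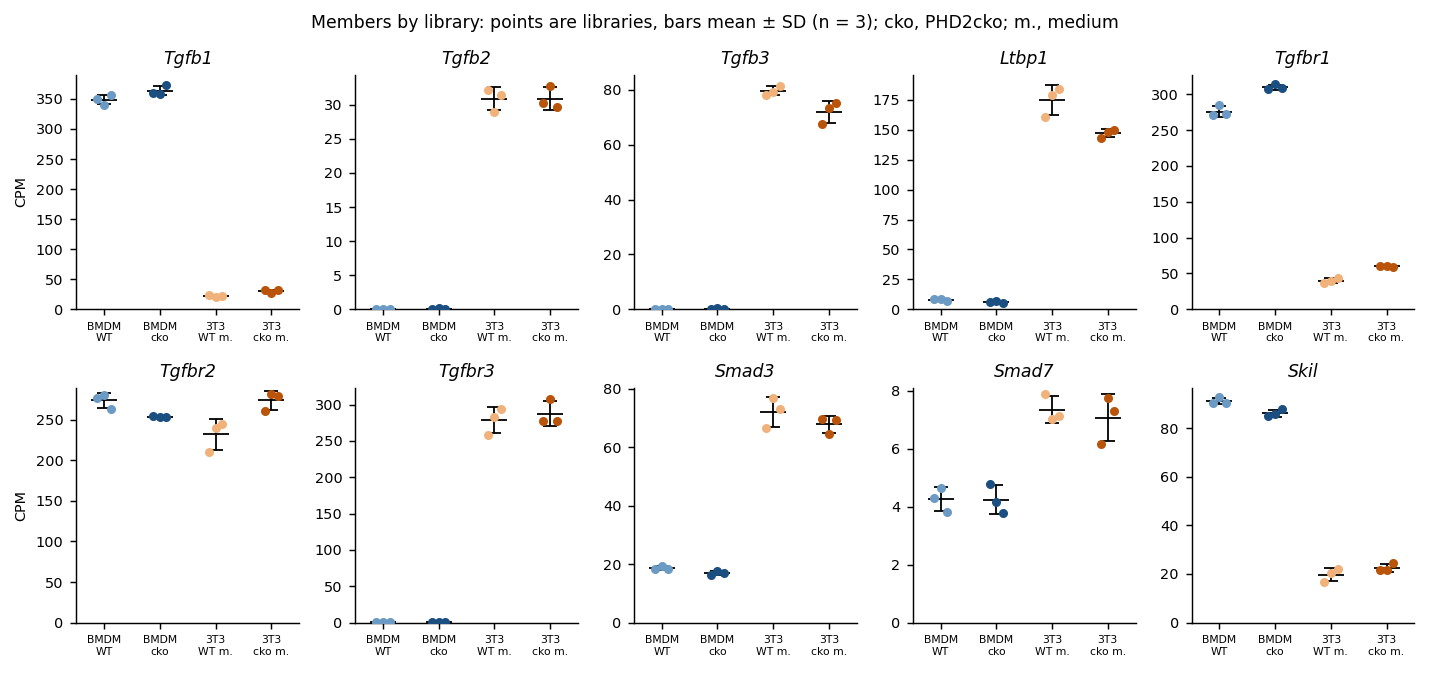
Normalized level of each member in CPM (counts per 1e6; linear axes from 0, with their own scale per gene) in the 4 groups; points are single libraries and bars the mean ± SD of 3. Tgfb1, Tgfbr1 and Skil are higher in BMDMs, while Tgfb2, Tgfb3, Tgfbr3 and Ltbp1 lie near 0 there beside the fibroblasts.

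Ltbp1 (ENSMUSG00000001870.16, chromosome 17, 75005568 to 75392512) encodes the matrix protein that tethers the latent ligand. It was at 8.57, 8.17 and 6.81 CPM in BMDM WT and at 160.3, 179 and 184 CPM in 3T3 cells in WT medium, 22.2-fold higher in fibroblasts (log2 fold change -4.48 for BMDM over 3T3, adjusted p = 4.6e-14, edgeR). In PHD2cko medium it fell to 143, 148 and 150.2 CPM, below every library in WT medium (log2 fold change -0.25 with a standard error of 0.0682, adjusted p = 0.0289, edgeR). This call was the least stable of the fibroblast calls, since leaving out any fibroblast library but WT medium replicate 1 put the adjusted p between 0.0517 and 0.102. With the macrophage share subtracted, the adjusted p was 0.0546 at a log2 fold change of -0.21. In BMDMs labelled PHD2cko, Ltbp1 stood at 6.25, 6.56 and 5.04 CPM, each below the 3 WT values, and did not pass the threshold (log2 fold change -0.41, adjusted p = 0.0744, edgeR). Without BMDM WT replicate 3 it did (log2 fold change -0.50, adjusted p = 0.0466, edgeR).

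The receptors differed between the cell types as well. Tgfbr1 (ENSMUSG00000007613.15, chromosome 4, 47353222 to 47414931), the kinase that phosphorylates SMADs, was at 270.5, 285 and 273 CPM in BMDM WT and at 36.3, 39.97 and 43.0 CPM in 3T3 cells in WT medium, 6.94-fold higher in macrophages (log2 fold change 2.79, adjusted p = 5.3e-14, edgeR). Tgfbr3 (ENSMUSG00000029287.14, chromosome 5, 107106570 to 107289629) showed the reverse, with 8, 13 and 16 counts in BMDM WT against 5087, 7809 and 5556 in WT medium, a ratio of 365 (counting interval 264 to 518). Tgfbr2 (ENSMUSG00000032440.13, chromosome 9, 116084293 to 116175360), the ligand-binding kinase, differed least between them, at 277, 281 and 264 CPM in BMDM WT and 211, 240.4 and 245 CPM in WT medium (log2 fold change 0.24, adjusted p = 0.00219, edgeR). Per kilobase, Tgfbr2 stood at 0.792 ± 0.0228 of Tgfbr1 in BMDM WT and at 4.66 ± 0.128 of it in 3T3 cells in WT medium (SD, n = 3).
Tgfbr1 showed the largest label difference among the members in fibroblasts. It rose from the values above to 60.6, 59.9 and 59.1 CPM in PHD2cko medium, a 1.505-fold difference without overlap (log2 fold change 0.59 with a standard error of 0.0573, adjusted p = 6.8e-05, edgeR). Replicate 2, with the lowest macrophage share, was level with the other replicates. The part that the share times the BMDM level gives was 6.73, 1.53 and 6.03 CPM, and 61.3, 65.2 and 59.9 CPM were left against 39.0, 43.6 and 46.7 CPM in WT medium. After subtraction the log2 fold change was 0.52 (adjusted p = 1.6e-04, edgeR), and with replicate 2 alone in its group 0.59 (adjusted p = 0.00222, edgeR). It passed in each of 10 alternatives and when any of the 6 fibroblast libraries was left out.
Tgfbr2 rose to 261, 282 and 279.8 CPM in PHD2cko medium (log2 fold change 0.24 with a standard error of 0.0596, adjusted p = 0.0169, edgeR), with the 3 libraries above those in WT medium. Subtracting the macrophage share gave 0.26 (adjusted p = 0.0111, edgeR). The call ended without PHD2cko medium replicate 3 (0.23, adjusted p = 0.0703, edgeR) and with the 6 fibroblast libraries fitted alone (0.25, adjusted p = 0.0862, edgeR). Tgfbr3 did not pass, at 259, 283 and 294 CPM in WT medium and 277, 308 and 278 CPM in PHD2cko medium (log2 fold change 0.05, 95% interval -0.14 to 0.23).

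**Figure D3:**
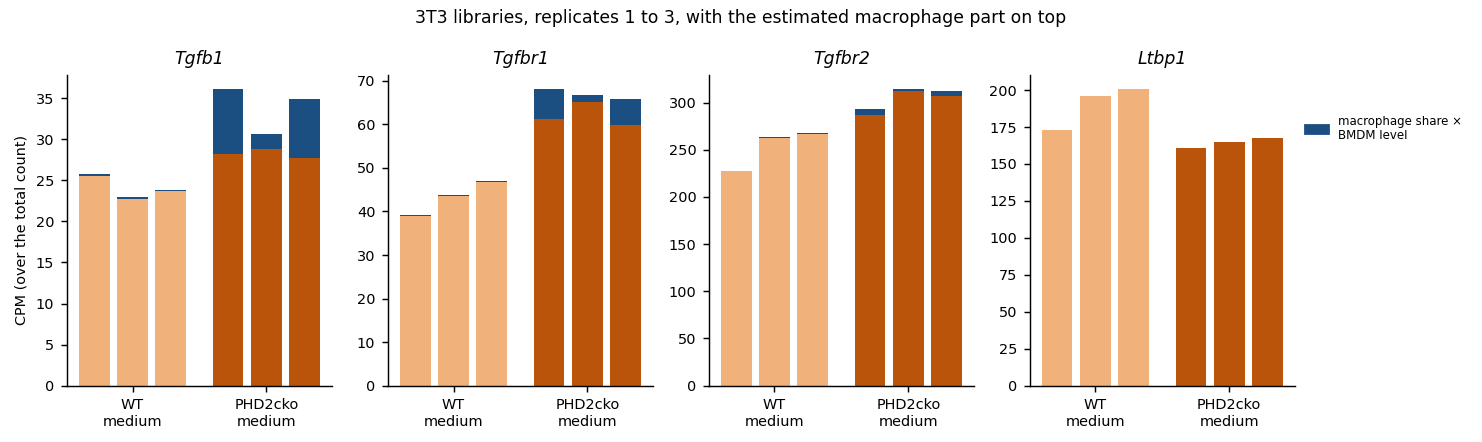
Level of 4 members in each 3T3 library in CPM over the total count, replicates 1 to 3 from left to right in each medium. The blue top of a bar is the macrophage share of that library times the mean BMDM level, up to 7.91 for Tgfb1 and 6.73 for Tgfbr1, and the lower part is what was left.

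In BMDMs labelled PHD2cko, Tgfbr1 was at 307, 314 and 309 CPM, above each WT library, but short of the threshold (log2 fold change 0.17, 95% interval 0.05 to 0.29, adjusted p = 0.0876, edgeR). DESeq2 put its adjusted p at 0.0163. Tgfbr2 stood at 255, 253 and 254 CPM, below each WT library (log2 fold change -0.11, adjusted p = 0.370, edgeR). Fitted on the 6 BMDM libraries alone, Tgfbr1 (adjusted p = 8.1e-04), Tgfbr2 (0.0129) and Ltbp1 (0.0469) passed with edgeR, in a fit that called 17.6% of all genes. Tgfbr3 had 8 to 23 counts in every BMDM library, and its 49 counts against 37 give a ratio of 1.28 with a counting interval of 0.816 to 2.01.

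None of the intracellular members passed in either label comparison. Smad3 (ENSMUSG00000032402.12, chromosome 9, 63646767 to 63757994), which carries the signal to the nucleus, was at 18.4, 19.3 and 18.2 CPM in BMDM WT and 66.6, 76.7 and 73.2 CPM in 3T3 cells in WT medium (log2 fold change -1.95, adjusted p = 4.2e-12, edgeR). PHD2cko medium gave 69.7, 64.6 and 69.4 CPM, overlapping WT medium (log2 fold change -0.09, adjusted p = 0.326, edgeR). Smad7 (ENSMUSG00000025880.11), the inhibitory SMAD that the pathway itself induces, had the lowest level per kilobase of these in BMDM WT, with 4.28, 4.66 and 3.83 CPM there. It stood at 7.89, 7.04 and 7.14 CPM in WT medium and 6.17, 7.75 and 7.31 CPM in PHD2cko medium, which overlap (log2 fold change -0.05, 95% interval -0.33 to 0.22). Skil (ENSMUSG00000027660.16, chromosome 3, 31095058 to 31122577) encodes SnoN, a repressor of SMAD complexes. It was 4.61-fold higher in BMDM WT, at 90.4, 92.8 and 90.4 CPM, than in WT medium, at 16.6, 20.4 and 22.2 CPM (log2 fold change 2.21, adjusted p = 1.3e-11, edgeR). Neither label comparison passed for Skil, at a log2 fold change of 0.19 in fibroblasts (adjusted p = 0.175, edgeR) and of -0.08 in BMDMs (adjusted p = 0.640, edgeR). Smad3 and Smad7 had log2 fold changes of -0.14 and -0.01 in BMDMs (adjusted p = 0.346 and 1, edgeR).

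In all, 4 of the 10 members passed in fibroblasts, Tgfb1, Tgfbr1 and Tgfbr2 higher and Ltbp1 lower in PHD2cko medium, beside 15.7% of all genes. With the macrophage share subtracted 3 of them passed, beside 13.3% of all genes, and with PHD2cko medium replicate 2 as the single library of its group 1 did, Tgfbr1, beside 3.16%. The median log2 fold change of the 10 was 0.02, beside -0.00 over all genes tested. In BMDMs their median was 0.03, or -0.00 with the genes near the floor set at their bound, beside 0.00. The label difference was larger in fibroblasts than in BMDMs for 3 members by the interaction term, beside 12.3% of all genes that passed it in either direction. These were Tgfb1 (0.39, adjusted p = 0.0123), Tgfbr1 (0.42, adjusted p = 0.00329) and Tgfbr2 (0.35, adjusted p = 0.0169, each on the log2 scale with edgeR). After subtraction of the macrophage share, Tgfb1 no longer passed (0.17, adjusted p = 0.160), while Tgfbr1 (0.36, adjusted p = 0.0123) and Tgfbr2 (0.37, adjusted p = 0.0121) did, beside 10.0% of all genes. With replicate 2 as the single library, Tgfbr1 alone passed (0.42, adjusted p = 0.0391), beside 4.68%.

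**Figure D4:**
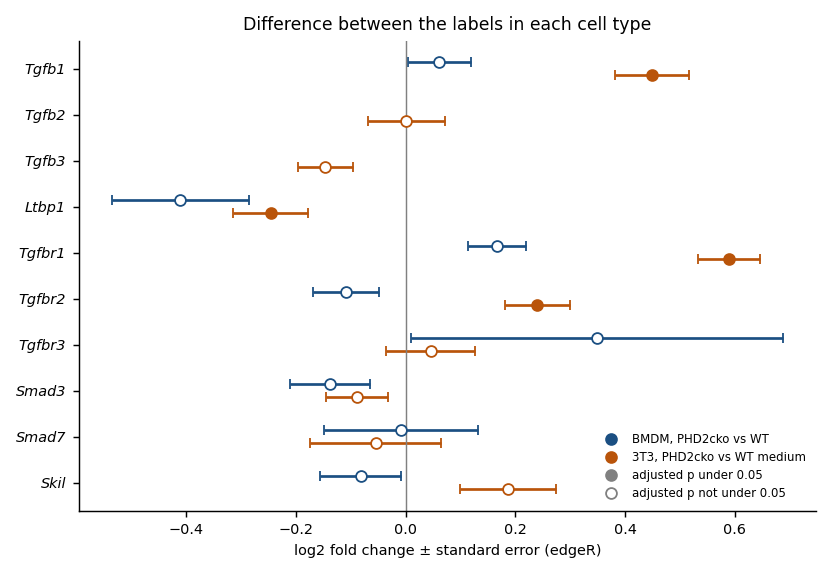
Log2 fold change of PHD2cko over WT with its standard error for each member, in BMDMs (blue) and in 3T3 cells by medium (orange); filled points have an adjusted p under 0.05 with edgeR. Tgfb2 and Tgfb3 are left out in BMDMs for want of counts, and the filled points are Tgfb1, Tgfbr1, Tgfbr2 and Ltbp1 in fibroblasts, from -0.25 to 0.59.

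Ordered by level per kilobase, BMDM WT ran from Tgfb1 (69.2 ± 1.51 CPM per kb) through Tgfbr1 (42.2 ± 1.19), Tgfbr2 (33.5 ± 1.07), Skil (9.41 ± 0.142), Smad3 (3.36 ± 0.106), Smad7 (0.942 ± 0.0917) and Ltbp1 (0.734 ± 0.0861) to Tgfbr3, Tgfb3 and Tgfb2. Fibroblasts in WT medium ran from Tgfbr3 (42.6 ± 2.74 CPM per kb) through Tgfbr2 (28.3 ± 2.28), Tgfb3 (23.6 ± 0.487), Ltbp1 (16.3 ± 1.17), Smad3 (13.0 ± 0.921), Tgfbr1 (6.09 ± 0.514), Tgfb2 (5.34 ± 0.289) and Tgfb1 (4.41 ± 0.290) to Skil (2.04 ± 0.293) and Smad7 (1.63 ± 0.103). Of neighbours in the fibroblast order, Tgfbr1 and Tgfb2 overlapped in their libraries, as did Skil and Smad7. With the length of the longest transcript, Ltbp1 passed Tgfb3 and Tgfb1 passed Tgfbr1 and Tgfb2 in fibroblasts, and Ltbp1 passed Smad7 in BMDM WT.

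Beyond the 10, other genes of the pathway were followed in 4 lists, whose counts are to be read against the 6.73% of all genes called in BMDMs and the 15.7% called in fibroblasts. Of 13 tested genes that hold or free latent TGFβ, 2 were higher and 2 lower in BMDMs labelled PHD2cko, with a list median of 0.02. Thbs1, which encodes the activator thrombospondin 1, fell from 23.8 to 9.84 CPM (log2 fold change -1.27, adjusted p = 2.2e-05, edgeR). Furin, the convertase that cleaves the precursors, fell by 0.18 on the log2 scale, while Ltbp3 (0.23) and Lrrc32 (1.24, from 1.30 to 3.09 CPM), which encodes the latent TGFβ anchor GARP, rose. Lrrc32 missed the threshold when any of the 6 BMDM libraries was left out, Furin when any but BMDM WT replicate 2 was, and Ltbp3 without replicate 2 of either label. In fibroblasts, 2 were higher and 2 lower, with a median of 0.00. Thbs1 fell from 1482 to 917 CPM in PHD2cko medium (log2 fold change -0.69, adjusted p = 3.6e-04, edgeR), and Itgb5, a subunit of the TGFβ-activating integrin αvβ5, from 182 to 132 CPM (-0.47, adjusted p = 6.0e-05). Fbn1, encoding the fibrillin to which latent complexes attach, rose by 0.45 (adjusted p = 0.0346), but did not pass without WT medium replicate 2 or any 1 of the PHD2cko medium libraries. Nrros, the myeloid counterpart of Lrrc32, went from 0.742 to 7.26 CPM in fibroblasts (3.28, adjusted p = 3.1e-04). BMDMs hold it at 248 CPM, and with the macrophage share subtracted its difference was 2.72. With PHD2cko medium replicate 2, the one of its group with the lowest macrophage marker level, as its only library the difference was 1.96 (adjusted p = 6.2e-04, edgeR).
Among 14 receptors and receptor partners, Pmepa1, which sequesters SMADs and is itself induced by TGFβ, was lower in both cell types. It went from 2.68 to 1.36 CPM in BMDMs labelled PHD2cko (log2 fold change -0.98, adjusted p = 0.00176, edgeR) and from 22.8 to 15.5 CPM in PHD2cko medium (-0.56, adjusted p = 4.5e-04). Cd109, a co-receptor that restrains TGFβ signalling, fell from 109 to 77.1 CPM in fibroblasts (-0.51, adjusted p = 3.6e-04). Dab2, an adaptor of the receptors, rose in BMDMs (0.31, adjusted p = 0.0496) and in fibroblasts (0.37, adjusted p = 0.0128), but missed the threshold when any BMDM library was left out, and in fibroblasts without PHD2cko medium replicate 1 or 3. BMDM WT held Dab2 at 431 CPM, and its fibroblast difference was 0.16 in the lowest of 10 alternatives. Acvrl1, a type I receptor at 41.0 CPM in BMDM WT, rose from 2.28 to 3.29 CPM in PHD2cko medium (0.54, adjusted p = 0.00816), and no longer passed without PHD2cko medium replicate 1 or once the macrophage share was subtracted (0.32, adjusted p = 0.180). The other 12 of 14 genes in BMDMs and 10 of 14 in fibroblasts did not pass, and the list medians were -0.03 and 0.04.
Of 20 SMADs, co-regulators and ubiquitin ligases, 1 passed in BMDMs, the repressor Tgif2, which fell from 6.13 to 4.57 CPM (log2 fold change -0.42, adjusted p = 0.0217, edgeR) and missed the threshold when any BMDM library but WT replicate 2 was left out. In fibroblasts 3 of 20 passed, near the 15.7% of all genes. Usp15, a deubiquitinase of the receptor complex, rose by 0.21 (adjusted p = 0.00751), a call that ended with the fibroblast libraries alone (adjusted p = 0.0548, edgeR). Smad1, a transducer of BMP signals, fell by 0.23 (adjusted p = 0.0365), a call that ended in 4 of the 6 leave-one-out fits, those without replicate 2 or 3 of either medium. Wwp1, a ubiquitin ligase at 794 CPM in BMDM WT, rose from 33.0 to 40.2 CPM in PHD2cko medium (0.29, adjusted p = 0.0134), did not pass without PHD2cko medium replicate 1 or 3, and turned its sign with the macrophage share subtracted (-0.17, adjusted p = 0.301). List medians were -0.01 in BMDMs and -0.05 in fibroblasts.
Genes induced by TGFβ did not move one way in fibroblasts, where 4 of 19 tested were higher and 6 lower in PHD2cko medium, with a median of 0.00. Acta2, smooth muscle actin, fell from 412 to 194 CPM (log2 fold change -1.09, adjusted p = 6.7e-07, edgeR) and the actin-binding Tagln from 46.3 to 23.9 CPM (-0.95, adjusted p = 6.0e-05). The smooth muscle markers, of which Acta2 is 1 of 3, summed to 431 to 478 CPM in WT medium and 211 to 231 CPM in PHD2cko medium. Postn, encoding the matrix protein periostin, rose from 193 to 331 CPM (0.78, adjusted p = 2.3e-04). Tgfbi, encoding another matrix protein, rose from 17.4 to 35.0 CPM (1.01, adjusted p = 3.6e-04), with BMDM WT at 1206 CPM, and its difference was 0.44 with the macrophage share subtracted (adjusted p = 0.00112). Others past the threshold, named after their values were seen, were Klf10 (0.63) and Junb (0.58), both early transcription factors, as higher ones, and Lox (-0.53), Ctgf (-0.45) and Tpm1 (-0.25) as lower ones. Ctgf missed the threshold without WT medium replicate 2 and without PHD2cko medium replicate 1 or 3. Junb, at 127 CPM in BMDM WT, had a fibroblast difference of 0.37 in the lowest of 10 alternatives. In BMDMs 1 of the 19 passed, Klf10 (0.29, adjusted p = 0.0432), which no longer did when any of the 6 BMDM libraries was left out, and the list median was -0.05.
With PHD2cko medium replicate 2 as the single library of its group, 3 latency genes, 1 receptor partner, 0 SMAD regulators and 5 induced genes passed in fibroblasts, beside 3.16% of all genes. With the 6 fibroblast libraries fitted alone, 3, 2, 0 and 10 passed in the same order, beside 6.93% of all genes, and Fbn1, Acvrl1, Dab2, Usp15, Wwp1 and Smad1 were not among them. Limma-voom on those libraries with the replicate block gave 3, 2, 0 and 9, beside 5.40%.

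**Figure D5:**
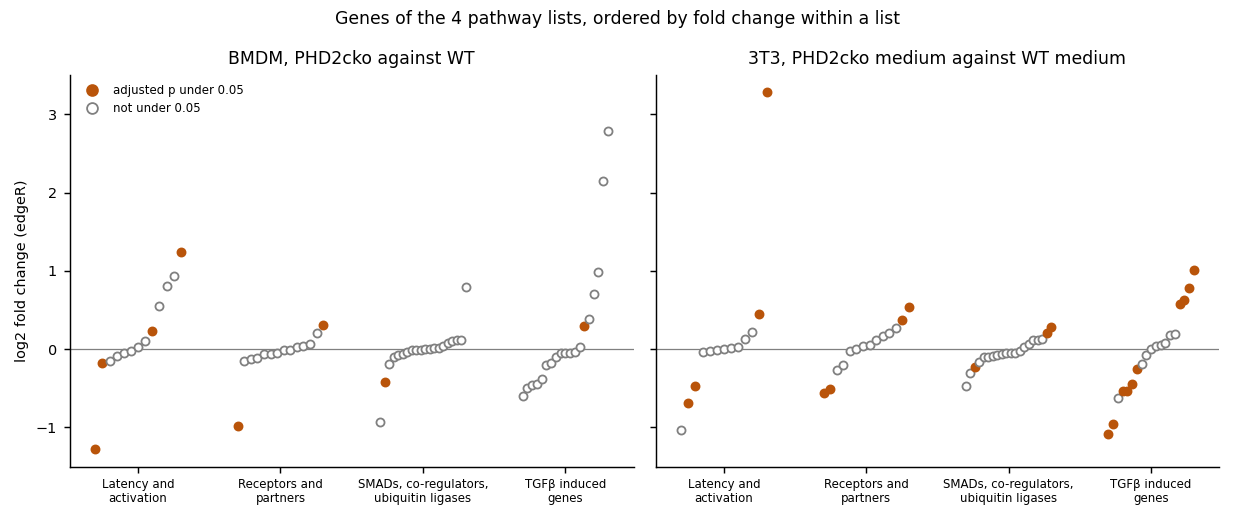
Log2 fold change of each tested gene in the 4 pathway lists, in BMDMs (left) and in 3T3 cells (right), sorted within a list; filled points have an adjusted p under 0.05 with edgeR. Filled points lie on both sides of 0 in the fibroblast panel, and Nrros stands highest there at 3.28.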

How the data were processed

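RNA of 12 libraries in 4 groups of 3 was compared. The authors deposited estimated counts per gene, made with Kallisto on GRCm38 (version not given in the sources used here) and not normalized. The values are whole numbers; the rounding is not described. Library totals are given with the results.

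Groups were compared in edgeR 4.0.16 (R 4.3.3): filterByExpr with 4 groups (14285 of 32544 genes kept), TMM, 1 quasi-likelihood fit over the 12 libraries, two-sided, Benjamini-Hochberg adjusted over all genes kept, threshold 0.05. CPM are counts per 1e6 of the effective library size, and marker sums and the parts of the macrophage share are over the total count. Levels per kilobase use the union of annotated exons (GENCODE vM21). The macrophage share is the sum of 24 markers relative to BMDMs of the same label; for subtraction, the average BMDM profile multiplied by that share was taken off each 3T3 library. Count ratios have exact 95% intervals. The fit was tested on simulated data.

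Alternatives were limma 3.58.1 with voom, the authors' method, the Wald test of DESeq2 1.42.0, its size factors in edgeR, filters of at least 10 counts in every library or 1 count in total, the replicate number as a block, the libraries of a cell type alone, subtraction, each library left out and, chosen after seeing the data, PHD2cko medium replicate 2 as the single library of its group. The members and lists were chosen with earlier results of these data known. Named genes are the 10 members, Egln1, the most abundant macrophage markers and, per pathway list and label comparison, up to 4 genes past the threshold with the lowest adjusted p; a few outside this rule, Adgre1 and Bnip3 among them, were picked with their values in view. The 3 genes most like each ligand were ranked by Pearson correlation over the 12 libraries. A background allele of the mice that gave the marrow and 1 gene of the induced list are not reported here.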

Additional observations from a re-analysis of the deposited data

Results flagged for a closer look

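The label difference of 3 members was larger in 3T3 cells than in BMDMs by the interaction term of edgeR. For Tgfb1 the log2 fold change was 0.45 in 3T3 cells and 0.06 in BMDMs, a difference of 0.39 (standard error 0.0884, adjusted p = 0.0123), and for Tgfbr1 it was 0.59 and 0.17, a difference of 0.42 (standard error 0.0778, adjusted p = 0.00329). For Tgfbr2 it was 0.24 and -0.11, a difference of 0.35 (standard error 0.0844, adjusted p = 0.0169). With the macrophage share subtracted, the difference of Tgfb1 was 0.17 and no longer passed (adjusted p = 0.160), while Tgfbr1 (0.36, adjusted p = 0.0123) and Tgfbr2 (0.37, adjusted p = 0.0121) did. With PHD2cko medium replicate 2 as the single library of its group, Tgfbr1 passed (0.42, adjusted p = 0.0391), and Tgfb1 (0.25, adjusted p = 0.221) and Tgfbr2 (0.39, adjusted p = 0.0538) did not. All 3 PHD2cko medium libraries lay above all 3 WT medium libraries for each of these genes. This adds no support, since the genes were picked by a test on the same libraries. The share of all genes without overlap was not computed. The 3T3 libraries in PHD2cko medium also held 235 to 1034 CPM of macrophage markers, against 28.8 to 31.5 CPM in WT medium. Whether this accounts for the part of the Tgfb1 difference that subtraction removed was not tested.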

How the results depend on the processing

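Between BMDM labels, 2 members passed with DESeq2's Wald test and 3 with the BMDM libraries fitted alone, against 0, and 0 to 1 passed with a library left out (1 without BMDM WT replicate 3, Ltbp1). In fibroblasts, 2 passed with the 6 fibroblast libraries alone and 2 with limma-voom on those libraries with the replicate block, 1 with PHD2cko medium replicate 2 as the single library of its group, and 2 to 4 with a library left out (2 without PHD2cko medium replicate 3). The cause of these shifts was not tested, and several of these fits also had fewer libraries. Over all genes, the BMDM libraries alone called 2514 in place of 961, and in fibroblasts the fibroblast libraries alone called 990, limma-voom with the block 772 and the single library 451 in place of 2240. Without single libraries the range was 525 to 668 in BMDMs, which 961 exceeds by over 1.5 times except without PHD2cko replicate 3, and 1278 to 2798 in fibroblasts, with 1343 without PHD2cko medium replicate 1 and 1278 without replicate 3. For the interaction term, 4 members passed without WT medium replicate 3, Skil being added (0.35, adjusted p = 0.0492, edgeR). That fit called 1777 of 14285 genes for the term, where the main fit called 1756.

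The ligand share of Tgfb1 depended on the length used: with the longest transcript it was 99.97 and 99.93% in BMDM WT and BMDMs labelled PHD2cko and 22.6 and 30.1% in WT and PHD2cko medium, and without division by length 16.7 and 22.7% in fibroblasts. Subtraction of the macrophage share gave 15.9% in PHD2cko medium.

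Signs turned for differences near 0 and for Wwp1 (-0.17 with the macrophage share subtracted). With a library left out, Smad7 ranged from -0.11 to 0.076 in BMDMs, -0.12 to 0.036 in fibroblasts and -0.13 to 0.051 for the interaction term. In the same fits Tgfb2 ranged from -0.044 to 0.054 and Tgfbr3 from -0.0051 to 0.085 in fibroblasts. Tgfbr3 ranged from -0.55 to 0.036 for the interaction term. With the single library, Smad7 was at 0.078 in fibroblasts and 0.086 for the interaction term, and Smad3 at -0.025 for that term.

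Same-numbered libraries did not deviate together (correlations from -0.023 to 0.011 in BMDMs and -0.040 to 0.016 in fibroblasts), so the numbers do not pair them. With the replicate block over 12 libraries, 0 members passed in BMDMs and 4 in fibroblasts, as without it, beside 815 and 1953 of 14285 genes. Between the cell types 10 passed and for the interaction term 3, as without the block, where 85.3% and 12.3% of all genes were called. The 10 include Tgfb2 and Tgfb3, whose difference between cell types was fixed by the filter. Of the genes named, Furin, Dab2, Tgif2 and Klf10 in BMDMs and Smad1 and Ctgf in fibroblasts no longer passed with the block. Depth limits Tgfb2 and Tgfb3 in BMDMs, where 3 counts are 0.141 to 0.188 CPM over the total count, a scale other than that of the members' CPM.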

Other observations

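Over the 12 libraries, the genes with the highest correlation of log2 CPM with Tgfb1 were Sdcbp, Sepp1 and Mfsd12, with Tgfb2 Magee1, Col1a2 and Cald1, and with Tgfb3 Plcg1, Kitl and Il17rc. The correlations were 0.999 or higher after rounding, and 1270, 1181 and 1262 of 12838 genes compared were above 0.99, since the libraries fall into 2 cell types. They describe the contrast between macrophages and fibroblasts and no further likeness.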
